A study of Mus musculus with 18 samples.

Results

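The 10 genes described here move calcium in the skeletal muscle fiber or bind it: Atp2a1, Atp2a2, Sln, Pln, Ryr1, Cacna1s, Jph1, Casq1, Casq2 and Pvalb. They were read through every probe that the array files name by one of these symbols, 13 of 55681 probes on the array, and they are 10 of its 35527 gene names. RNA was measured on Agilent 1-colour arrays in the nuclear and in the cytoplasmic fraction of mouse myofibers from soleus, tibialis anterior (TA) and extensor digitorum longus (EDL). All fibers came from untreated wild-type CD1 females aged 3 months, and each array held 1 pool of 5 to 10 fibers dissociated with collagenase. There were 3 arrays for each of the 6 groups, EDL cytoplasm, EDL nuclei, soleus cytoplasm, soleus nuclei, TA cytoplasm and TA nuclei, 18 in all.

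In a muscle fiber the action potential runs into the transverse tubules, where the voltage sensor of the dihydropyridine receptor opens the ryanodine receptor in the facing membrane of the sarcoplasmic reticulum. Calcium leaves the reticulum through this channel, the myofibrils contract, and pumps of the SERCA family return the calcium to the reticulum, where calsequestrin binds it. Sarcolipin and phospholamban are small membrane proteins that inhibit the pump. Fast fibers use the pump SERCA1 and hold much parvalbumin, a soluble calcium buffer that speeds relaxation, while slow fibers use SERCA2. EDL and TA of the mouse are mainly fast muscles, and soleus is a mixed muscle rich in slow fibers.

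Each probe is 60 bases long, lies in an mRNA of the gene that names it and was spotted once per array. None of the 13 shared a run of 30 bases with another probe, and none was saturated on any array. Atp2a2, Cacna1s and Pvalb had 2 probes each and the other 7 genes had 1. Both probes of a gene measure the same RNA preparation and are no replicates of each other. The 4 sequences below are those of both SERCA pumps, which differ most in how they follow the muscle, and of Ryr1 and Casq1, whose probes span more of the genome than their own length. Positions are mm9 coordinates from the array design.

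Atp2a1 (A_51_P244856, chr7:133591703-133591762, minus strand): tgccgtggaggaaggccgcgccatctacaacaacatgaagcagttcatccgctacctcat
Atp2a2 (A_52_P168097, chr5:122910660-122910719, minus strand): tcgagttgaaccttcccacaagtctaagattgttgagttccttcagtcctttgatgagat
Ryr1 (A_52_P391110, chr7:29788789-29789487, minus strand): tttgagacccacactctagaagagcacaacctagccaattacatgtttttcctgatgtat
Casq1 (A_51_P199104, chr1:174140602-174142105, minus strand): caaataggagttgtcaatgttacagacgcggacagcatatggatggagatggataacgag

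The Ryr1 probe covers 699 bases of the genome and the Casq1 probe 1504, so both cross an intron and match spliced RNA over their full length. The other 11 span 58 to 60 bases with no intron between, where spliced and unspliced RNA give the same match. The A_52_P168097 probe lies in the listed Atp2a2 transcripts NM_009722 and NM_001110140, whereas A_51_P451075 lies in NM_009722 and in the non-coding NR_027838 and not in NM_001110140.

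The arrays limit what can be said. EDL and soleus cytoplasm lay on slide 1, together with TA cytoplasm 1, and EDL and soleus nuclei on slide 2, so in EDL and in soleus fraction and slide cannot be told apart. For TA, slide 4 held the nuclei and cytoplasm 2, and slide 3, scanned the same day, held cytoplasm 3. The nuclear arrays of a muscle differed little from each other, by 1.02 to 1.15 times the spread between spots of 1 array at 399 repeated probes, against 1.44 to 1.83 times in cytoplasm, and each comparison was also computed with the nuclear arrays averaged to 1 sample per muscle. Soleus cytoplasm 2 lay nearest the nuclei on the first principal component, with a score of -5.86, while the remaining cytoplasm arrays scored -78.87 to -151.14. The slow-fiber markers bore out the soleus label. The summed intensity of 8 such genes was 137000 to 227000 in soleus, 8350 to 23300 in EDL and 2950 to 15200 in TA. The sum of 9 fast-fiber genes set the muscles less apart. In cytoplasm it was 168000 to 187000 in EDL, 130000 to 143000 in soleus and 121000 to 154000 in TA. In nuclei it was 216000 to 247000, 168000 to 172000 and 193000 to 216000.

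A level is the log2 of the normalized intensity of a probe, and it compares samples for that probe, not probes or genes with each other. A difference is on the same log2 scale and stands with its standard error (SE). Every p is limma's moderated test, 2-sided, with Benjamini-Hochberg adjustment across every probe of the array that entered the comparison and 0.05 as the threshold, and 3 arrays stand in each group unless another number is given. All 13 probes had a value on at least 2 of 3 arrays in each group and so entered every comparison, though some were dim in TA.

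**Figure D1:**
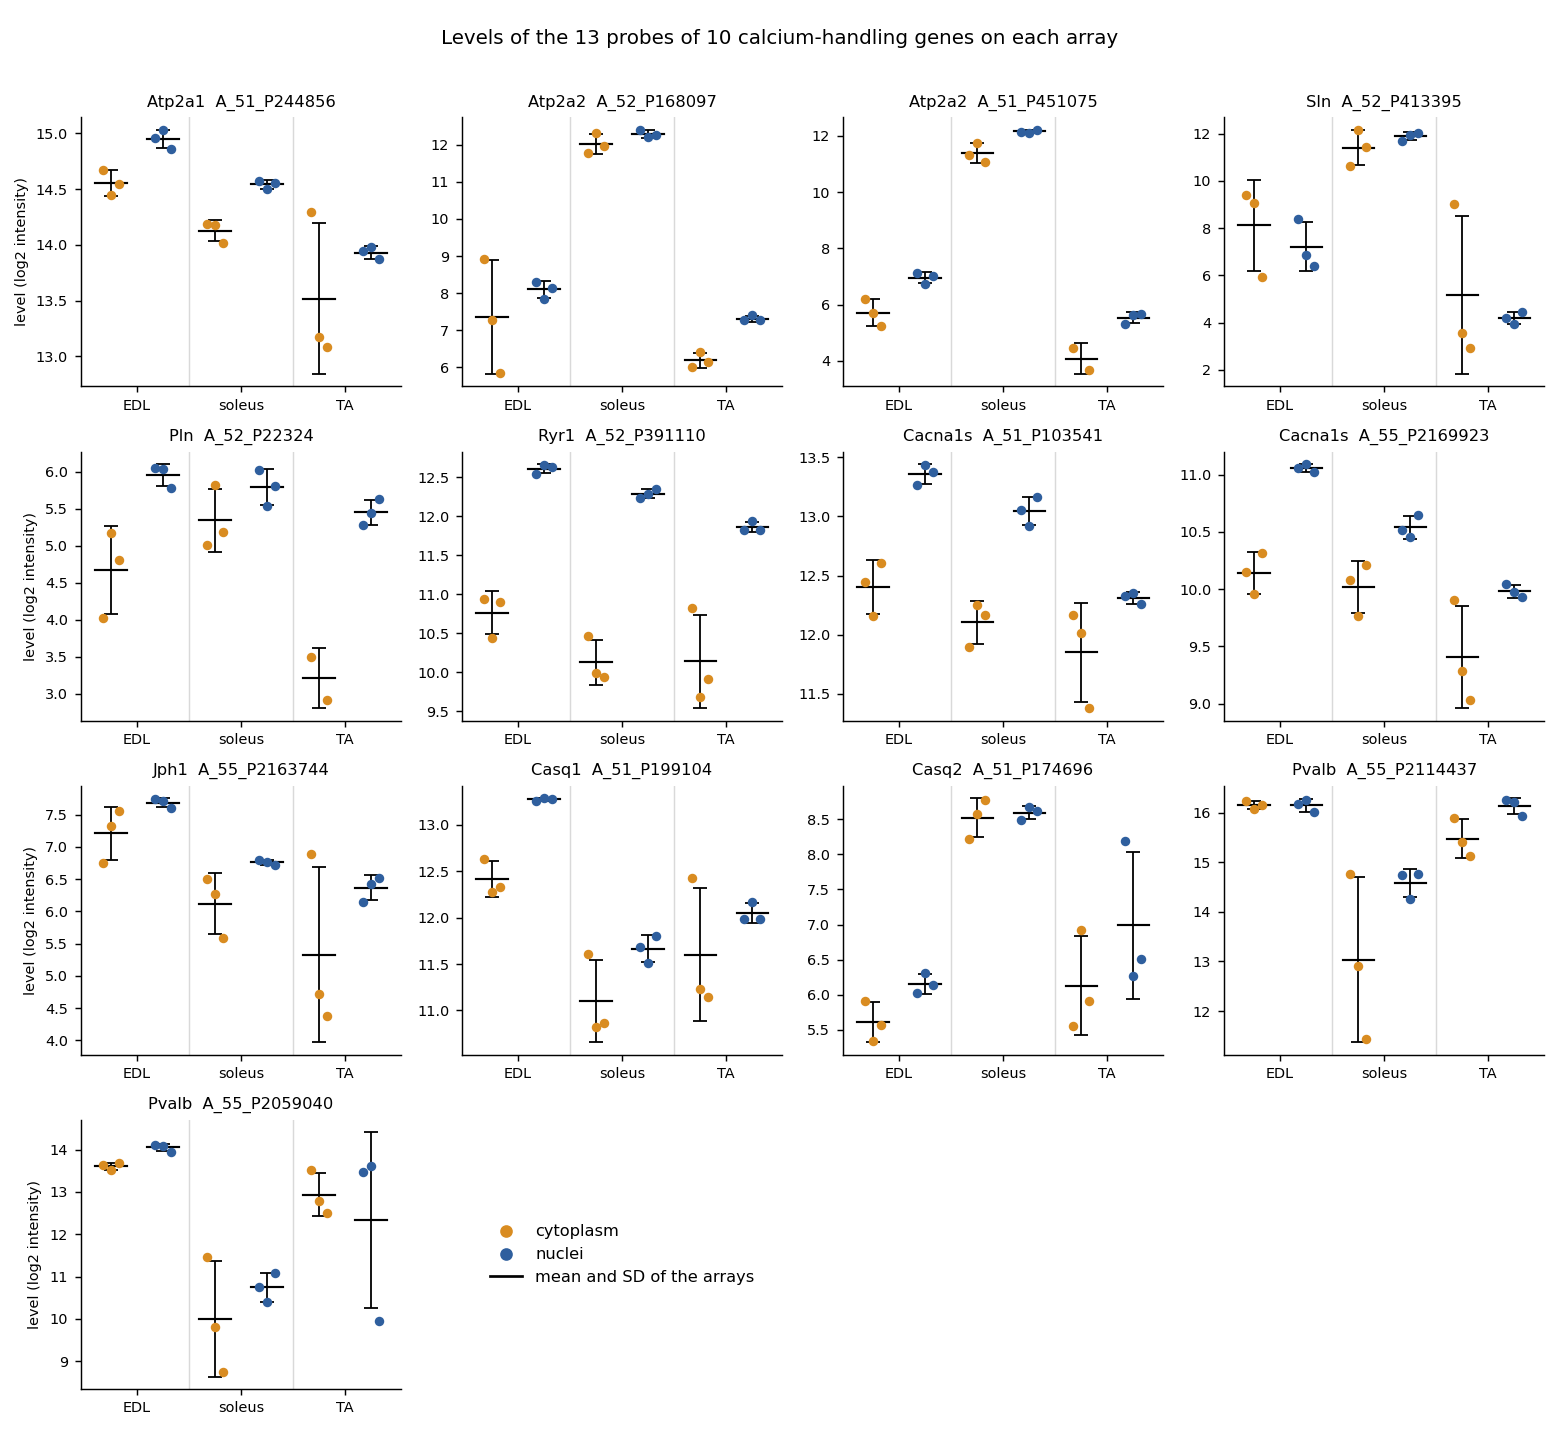
Level (log2 intensity) of each of the 13 probes on each array, by muscle on the horizontal axis and by fraction in colour, with the mean and SD of each group. The panels have their own vertical scales, and soleus stands above the other muscles for Atp2a2, Sln and Casq2. It stands below them for Pvalb, except that TA nuclei 3 reads 9.94 on A_55_P2059040, which is within the range of soleus. A missing point is a spot without positive and significant signal.

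The first comparison asked how the RNA of these genes is divided between nuclei and cytoplasm. Relative to the bulk of the probes, most of the 10 genes gave more signal in the nuclear fraction, led by Ryr1, the calcium release channel, which was 3.77-fold higher in nuclei over the 3 muscles. Phospholamban, SERCA2, the voltage sensor Cacna1s, SERCA1, junctophilin 1, calsequestrin 1 and 1 of the parvalbumin probes were also higher there, by 1.33-fold to 2.51-fold. The 2.51-fold of phospholamban rests in part on TA cytoplasm, where it was not well above background, and carries no firm size. Sarcolipin and calsequestrin 2 did not pass the test over the muscles, and 0 of the 13 probes were lower in nuclei. In all, 10 of 13 probes were higher in nuclei, while 31.2% of all probes tested were called higher, 38.6% lower and 69.8% in either direction. The median difference of the 13 was 0.71, against -0.08 over all probes tested. Levels are relative because arrays were normalized to each other. With no scaling between arrays the median of all probes moved from -0.08 to 0.42, and with scaling to the 75th percentile it moved to -0.17, so that 11 or 8 of the 13 were called higher. In these settings 71.3% and 74.2% of all probes were called in either direction. With the nuclear arrays as 1 sample per muscle 4 of the 13 were called higher, namely Ryr1, Pln, Atp2a2 A_51_P451075 and Cacna1s A_51_P103541.

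Ryr1 forms the pore through which the reticulum releases calcium. In EDL its level was 10.94, 10.44 and 10.90 on the cytoplasm arrays and 12.54, 12.66 and 12.63 on the nuclear arrays. In soleus it was 10.46, 9.99 and 9.94 in cytoplasm and 12.23, 12.29 and 12.35 in nuclei. In TA it was 10.82, 9.68 and 9.91 in cytoplasm and 11.82, 11.94 and 11.82 in nuclei. Every nuclear array lay above every cytoplasm array, also across muscles, and among the 13 probes only Ryr1 did so, against 6.47% of all probes. The difference was 1.85 in EDL (SE 0.25, adjusted p = 4.1e-05), 2.16 in soleus (SE 0.25, adjusted p = 1.7e-05) and 1.73 in TA (SE 0.25, adjusted p = 6.4e-05). With the nuclear arrays as 1 sample, the call in TA was lost (adjusted p = 0.052) and those in EDL and soleus were not.

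Cacna1s, the pore-forming subunit of the dihydropyridine receptor and the voltage sensor of the fiber, had 2 probes. On A_51_P103541 the level in EDL was 12.44, 12.16 and 12.61 in cytoplasm and 13.27, 13.44 and 13.37 in nuclei, and in soleus it was 11.90, 12.25 and 12.16 in cytoplasm and 13.06, 12.92 and 13.16 in nuclei. In TA the levels were 12.17, 12.01 and 11.38 in cytoplasm and 12.32, 12.35 and 12.26 in nuclei. The fractions did not overlap in any muscle, but the step in TA was narrow. The difference was 0.96 in EDL (SE 0.20, adjusted p = 0.0014), 0.94 in soleus (SE 0.20, adjusted p = 0.0021) and 0.46 in TA (SE 0.20, adjusted p = 0.070). On A_55_P2169923 it was 0.92 in EDL (adjusted p = 0.0021), 0.52 in soleus (adjusted p = 0.056) and 0.57 in TA (adjusted p = 0.029), where the call was lost without TA cytoplasm 2 or 3 or any 1 of the TA nuclei arrays (adjusted p = 0.052 to 0.12). With the replicate number as a block the difference of A_55_P2169923 in soleus passed (adjusted p = 0.049). Both probes therefore passed in EDL, and in soleus and TA a different probe passed. Jph1, which ties the tubule to the reticulum, differed by 0.72 over the muscles (SE 0.27, adjusted p = 0.026) and passed within no single muscle. Its call over the muscles was lost without EDL cytoplasm 1, soleus cytoplasm 3, TA cytoplasm 2 or TA cytoplasm 3 (adjusted p up to 0.057).

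Of the pumps, Atp2a2 makes the SERCA2 of slow fibers and heart. On A_51_P451075 the level in EDL was 6.20, 5.68 and 5.25 in cytoplasm and 7.11, 6.74 and 7.00 in nuclei. In soleus it was 11.32, 11.76 and 11.07 in cytoplasm and 12.13, 12.11 and 12.22 in nuclei. In TA it was 4.46 and 3.68 on the 2 cytoplasm arrays with a value and 5.30, 5.61 and 5.66 in nuclei. Within each muscle the nuclei lay above the cytoplasm with no overlap. The difference was 1.24 in EDL (SE 0.27, adjusted p = 0.0018), 0.77 in soleus (SE 0.27, adjusted p = 0.034) and 1.45 in TA (SE 0.30, adjusted p = 0.0011). In TA cytoplasm 1 of 3 arrays was well above background, and with normexp background correction the TA difference was 0.37 (adjusted p = 0.080). The soleus call was lost with the replicate number as a block (adjusted p = 0.054) and without soleus cytoplasm 1 or 3 or any 1 of the soleus nuclei arrays (adjusted p = 0.069 to 0.13). The other Atp2a2 probe, A_52_P168097, differed by 0.75 in EDL, 0.27 in soleus and 1.12 in TA and passed in none of them, though it passed over the 3 muscles (0.72, adjusted p = 0.034). Its EDL value ran from 0.003 without EDL cytoplasm 3 to 1.54 without EDL cytoplasm 1, and the call over the muscles was lost in 8 of 18 fits that left out 1 array (EDL cytoplasm 2, EDL nuclei 1 or 3, soleus cytoplasm 1 or 3, soleus nuclei 1, TA cytoplasm 1 or TA nuclei 2). Atp2a1 differed by 0.40, 0.42 and 0.41 in EDL, soleus and TA, passed in none of the muscles and passed over them (adjusted p = 0.017). That call was lost with scaling to the 75th percentile, where the difference was 0.02 (adjusted p = 0.91).

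Pln and Sln, the inhibitors of the pump, did not run together. The Pln level in EDL was 4.03, 5.18 and 4.81 in cytoplasm and 6.06, 6.04 and 5.79 in nuclei. In soleus it was 5.01, 5.83 and 5.19 in cytoplasm and 6.02, 5.54 and 5.82 in nuclei. In TA it was 3.50 and 2.92 on the 2 cytoplasm arrays with a value and 5.29, 5.44 and 5.63 in nuclei. The fractions were apart in EDL and TA and overlapped in soleus. The difference was 1.29 in EDL (SE 0.29, adjusted p = 0.0026), 0.45 in soleus (SE 0.29, adjusted p = 0.24) and 2.24 in TA (SE 0.33, adjusted p = 8.2e-05). In TA cytoplasm Pln was not well above background on any of the 3 arrays, so the differences in TA and over the muscles carry no firm size. Leaving out 1 array gave at least 2.15 in TA and 1.22 over the muscles. Among the other settings the lowest values were 0.56 in TA and 0.48 over the muscles, with the call kept. The summed intensity of 6 markers of smooth muscle and pericytes, cells that also use phospholamban, was 16300 to 24000 in TA nuclei, 3700 to 17600 in TA cytoplasm and 3400 to 4790 in the groups of EDL and soleus, and their part in the Pln difference was not tested.

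Sln had the widest spread within a group of the 13 probes, an SD of 3.35 in TA cytoplasm. In EDL the level was 9.39, 9.08 and 5.92 in cytoplasm and 8.38, 6.86 and 6.41 in nuclei. In soleus it was 10.64, 12.16 and 11.44 in cytoplasm and 11.71, 11.95 and 12.03 in nuclei. In TA it was 9.02, 3.56 and 2.92 in cytoplasm and 4.19, 3.96 and 4.47 in nuclei, with 1 of 3 arrays well above background in each fraction. The high TA cytoplasm array was the one that lay on slide 1 with EDL and soleus cytoplasm. The fractions overlapped in each muscle, and the differences of -0.91, 0.48 and -0.96 in EDL, soleus and TA had an SE of 1.21.

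Among the buffers, Casq1, the calsequestrin of fast fibers, had a nuclear excess of 0.86 in EDL (SE 0.29, adjusted p = 0.024), where the level was 12.64, 12.28 and 12.33 in cytoplasm and 13.26, 13.29 and 13.28 in nuclei. The call was lost without EDL cytoplasm 2 or 3 or any 1 of the EDL nuclei arrays (adjusted p = 0.055 to 0.074). The differences of 0.57 in soleus and 0.45 in TA did not pass, and that over the muscles was 0.63 (adjusted p = 0.0038). Casq2, the calsequestrin of heart and slow fibers, differed by 0.55, 0.07 and 0.86 in EDL, soleus and TA and did not pass (adjusted p = 0.079 over the muscles).

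Pvalb, the cytosolic buffer, gave different readings on its probes. On A_55_P2114437 the level in soleus was 14.76, 12.90 and 11.44 in cytoplasm and 14.73, 14.25 and 14.76 in nuclei, a difference of 1.55 (SE 0.53, adjusted p = 0.031) with overlap. It was lost without soleus cytoplasm 2 (1.48, adjusted p = 0.061), soleus cytoplasm 3 (0.75, adjusted p = 0.16), soleus nuclei 1 (adjusted p = 0.081) or soleus nuclei 3 (adjusted p = 0.083), and the difference was 2.41 without soleus cytoplasm 1. Over the muscles this probe differed by 0.73 (adjusted p = 0.044), a call lost in 15 of 18 fits that left out 1 array, all but those without soleus cytoplasm 1, soleus nuclei 2 or TA cytoplasm 1. In EDL the same probe was nearly level between fractions, at a difference of 0.00 (SE 0.53, adjusted p = 1.00). On A_55_P2059040 the differences were 0.44, 0.74 and -0.60 in EDL, soleus and TA and none passed. In TA nuclei this probe read 13.48, 13.60 and 9.94 while A_55_P2114437 read 16.24, 16.20 and 15.94 on the same arrays, so the third array was low at 1 probe only.

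**Figure D2:**
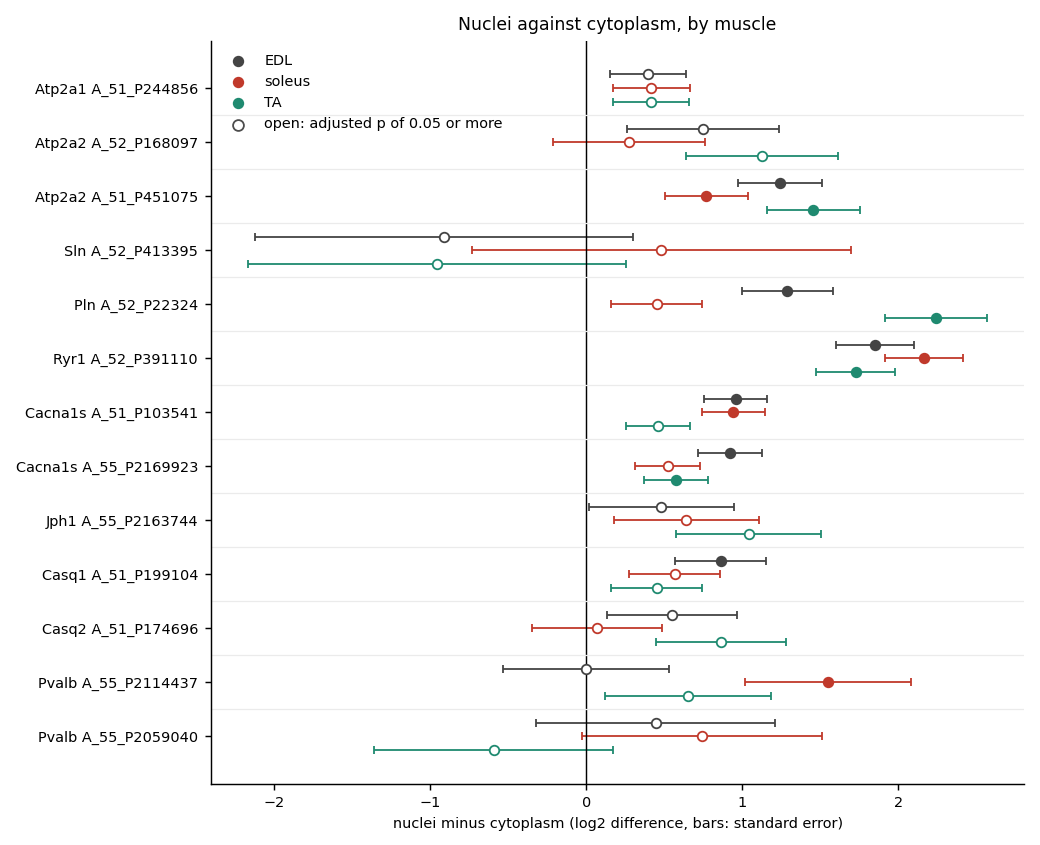
Nuclei minus cytoplasm for the 13 probes in EDL, soleus and TA (log2 difference, bars are standard errors, filled points passed an adjusted p of 0.05). Ryr1 lies between 1.73 and 2.16 in the 3 muscles, and filled points number 6 in EDL, 4 in soleus and 4 in TA, all to the right of 0.

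Within single muscles the counts were lower than over all of them. In EDL 6 of 13 probes were higher in nuclei, against a background of 46.6% of all probes called, 20% higher and 26.5% lower, and 10 of 13 had nuclei above cytoplasm with no overlap against 31.5%. In soleus 4 of 13 were higher, against 40.3% called, 18.7% higher and 21.7% lower, with no overlap at 6 against 28.3%. In TA 4 of 13 were higher, against 52.7% called, 19.2% higher and 33.5% lower, with no overlap at 7 against 22.2%. Only Ryr1 and the A_51_P451075 probe of Atp2a2 passed in each of the 3 muscles. For the interaction, which asks whether the fractions differ by another amount in another muscle, 0 of 13 probes passed limma's F test against 1.57% of all probes, and 1 of 13 had an unadjusted p under 0.05. That was Pln, at an adjusted p of 0.092.

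TA is the muscle in which fraction can be seen apart from slide, if only on slide 4, which held 1 cytoplasm and 3 nuclear arrays. With slide as a block the TA values compare the 3 nuclear arrays with TA cytoplasm 2 alone, and a p assumes that this lone array varies like the others. On that footing 7 of 13 probes were higher in nuclei in TA instead of 4. Those that passed in addition were Atp2a1 at 0.76, Casq1 at 0.82 and Jph1 at 1.65. Other members moved down or turned: Casq2 stood at 0.07 instead of 0.86, Cacna1s A_51_P103541 at 0.30 instead of 0.46, and Sln at 0.65 instead of -0.96, and none of these passed. Markers of other cell types went both ways over the 3 muscles. Higher in nuclei were 6 of 6 endothelial, 5 of 6 connective tissue and 5 of 6 Schwann cell genes and 3 of 6 genes of smooth muscle and pericytes, of which 2 were lower. Of the macrophage genes 5 of 6 were lower, of the erythroid genes 2 of 4 and of the cardiac genes 3 of 6, with 0 higher in each of these lists, and of 3 satellite cell genes tested 1 was higher and 1 lower. In EDL the summed intensity of the 6 connective tissue genes was 27700 to 35300 in cytoplasm and 70700 to 73600 in nuclei. Of the fast-fiber genes 7 of 9, and of the slow-fiber genes 5 of 8, were higher in nuclei as well, and the part of these cells in the member differences was not tested.

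The second comparison set soleus against EDL, a slow against a fast muscle, with both muscles of a fraction on the same slide and from the same mice. The SERCA2 pump Atp2a2 was 21.5-fold and 43.3-fold higher in soleus on its 2 probes, sarcolipin 15.8-fold and Casq2 6.38-fold. Parvalbumin was 5.07-fold and 11-fold lower in soleus and Casq1 2.76-fold lower. The fast pump Atp2a1, Pln, Ryr1, Cacna1s and Jph1 did not pass. Over both fractions 4 of 13 probes were higher and 3 lower in soleus, where 3.83% of all probes tested were called, 2.27% higher and 1.56% lower. The 4 and the 3 were also those whose 6 soleus arrays did not overlap with the 6 EDL arrays, as held for 1.2% and 0.948% of all probes. With the nuclear arrays as 1 sample per muscle, both Atp2a2 probes and Casq2 passed, and the calls of Sln (adjusted p = 1.00), Casq1 (0.53) and Pvalb (0.073 and 0.62) were lost.

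Of the pumps, Atp2a2 showed the greater difference. On A_52_P168097 the level in EDL was 8.92, 7.27 and 5.86 in cytoplasm and 8.30, 7.85 and 8.14 in nuclei. In soleus it was 11.77, 12.31 and 11.98 in cytoplasm and 12.40, 12.20 and 12.27 in nuclei. All soleus arrays lay well above all EDL arrays, and EDL cytoplasm was spread widely while soleus was tight. The difference was 4.43 (SE 0.34, adjusted p = 1.5e-06), and on A_51_P451075 it was 5.44 (SE 0.19, adjusted p = 1.0e-09), and both probes passed in each fraction. Atp2a1, the pump of fast fibers, was bright in both muscles, at 14.67, 14.44 and 14.55 in EDL cytoplasm and 14.18, 14.18 and 14.02 in soleus cytoplasm. In nuclei it was 14.96, 15.03 and 14.87 in EDL and 14.58, 14.50 and 14.56 in soleus. Soleus was the lower muscle in each fraction without overlap, but the difference of -0.42 (SE 0.17) did not pass (adjusted p = 0.25). It passed with slide as a block (adjusted p = 0.011) and without TA cytoplasm 1 (adjusted p = 0.011), neither of which changed the difference itself. EDL and soleus of a fraction share a slide, so the block cannot adjust this comparison for slide. It fitted each TA cytoplasm array by itself, which took the spread of that group out of the SE.

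Of the inhibitors, Sln followed Atp2a2, with levels given above: the lowest soleus array stood at 10.64 and the highest EDL array at 9.39. The difference was 3.98 (SE 0.86, adjusted p = 0.015). Within nuclei it was 4.68 (adjusted p = 0.076) and within cytoplasm 3.28 (adjusted p = 0.23), and both passed with slide as a block, at 0.0048 and 0.039. Here too the block left the differences as they were and only took the wide spread of TA cytoplasm out of the SE. Pln, by contrast, differed by 0.25 (SE 0.21, adjusted p = 0.62), with overlap of the muscles.

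The release machinery did not pass between these muscles. Soleus minus EDL was -0.48 for Ryr1 (SE 0.18, adjusted p = 0.19), -0.30 and -0.32 for the Cacna1s probes (adjusted p = 0.33 and 0.32) and -1.01 for Jph1 (SE 0.33, adjusted p = 0.12). Jph1 levels in nuclei were 7.74, 7.72 and 7.61 in EDL and 6.80, 6.77 and 6.72 in soleus, and in cytoplasm 6.75, 7.32 and 7.55 in EDL and 6.51, 6.27 and 5.59 in soleus. Soleus was lower in each fraction with no overlap within it. With slide as a block Jph1 passed (adjusted p = 0.0030) and so did Ryr1 (adjusted p = 0.033), while the Cacna1s probes did not. As for Atp2a1, this block changed no difference between EDL and soleus, only the SE, by leaving out the spread of TA cytoplasm.

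The calsequestrins went opposite ways. Casq2 in EDL was 5.92, 5.34 and 5.58 in cytoplasm and 6.02, 6.30 and 6.14 in nuclei, and in soleus it was 8.22, 8.58 and 8.77 in cytoplasm and 8.49, 8.67 and 8.61 in nuclei. The muscles lay far apart in both fractions. The difference was 2.67 (SE 0.29, adjusted p = 4.9e-05), with 2.91 in cytoplasm and 2.44 in nuclei, both of which passed. Casq1 in EDL was 12.42 ± 0.19 (SD, n = 3) in cytoplasm and 13.28 ± 0.02 in nuclei, and in soleus 11.10 ± 0.45 and 11.67 ± 0.14. Soleus was lower in each fraction. The difference was -1.46 (SE 0.21, adjusted p = 0.00055). In cytoplasm alone it was -1.32 (adjusted p = 0.037), which was lost with the replicate number as a block (adjusted p = 0.054) and in 14 of 18 fits that left out 1 array (adjusted p = 0.054 to 0.12), all but those without soleus cytoplasm 1 or one of the TA cytoplasm arrays. In nuclei it was -1.61 (adjusted p = 0.0080), lost without soleus nuclei 2 (adjusted p = 0.052).

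Pvalb had the greatest fall in soleus. On A_55_P2059040 EDL was 13.63, 13.52 and 13.68 in cytoplasm and 14.10, 14.09 and 13.95 in nuclei. In soleus it was 11.46, 9.81 and 8.75 in cytoplasm and 10.74, 10.41 and 11.08 in nuclei. EDL was tight and soleus lay below it throughout, with cytoplasm spread over almost 3 log2 units. The difference was -3.46 (SE 0.54, adjusted p = 0.0014), and on A_55_P2114437 it was -2.34 (SE 0.38, adjusted p = 0.0017). The latter was -3.12 in cytoplasm (adjusted p = 0.0069) and -1.56 in nuclei (adjusted p = 0.24), and the cytoplasm value was -3.98 without soleus cytoplasm 1 and -2.32 without soleus cytoplasm 3. The call of A_55_P2059040 within cytoplasm (-3.60) was lost without soleus cytoplasm 2 or 3 or any 1 of the EDL cytoplasm arrays, with an adjusted p up to 0.092. Within nuclei (-3.31) it was lost in 11 of 18 such fits, those without any 1 array of EDL, of soleus nuclei, or TA cytoplasm 2 or 3. Within nuclei 5 of 13 probes passed, 3 higher and 2 lower, against 1.56% of all probes, 0.978% higher and 0.579% lower. Within cytoplasm 6 of 13 passed, 3 in each direction, against 1.42%, with 0.853% higher and 0.57% lower. Without overlap there were 12 in nuclei, 4 higher and 8 lower, against 21.8% and 17.4% of all probes, and 9 in cytoplasm, 4 higher and 5 lower, against 7.45% and 8.64%.

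The fiber type markers moved with these members. Of the slow-fiber genes 8 of 8 were higher in soleus, by a median of 3.94, and of the fast-fiber genes 5 of 9 were lower and 1 was higher. In whole pools a change in the number of fibers of a type and a change of the RNA in each fiber cannot be told apart. Of the 6 cardiac genes tested 2 were higher in soleus and 0 lower. Nppa, Nppb and Myl4 were well above background on all 18 arrays, Tnni3 on 3 of 3 arrays of each soleus fraction, on 0 in EDL cytoplasm and on 1 in EDL nuclei, and Ryr2 on 0 of the 18. The part of such RNA in the member differences was not tested.

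**Figure D3:**
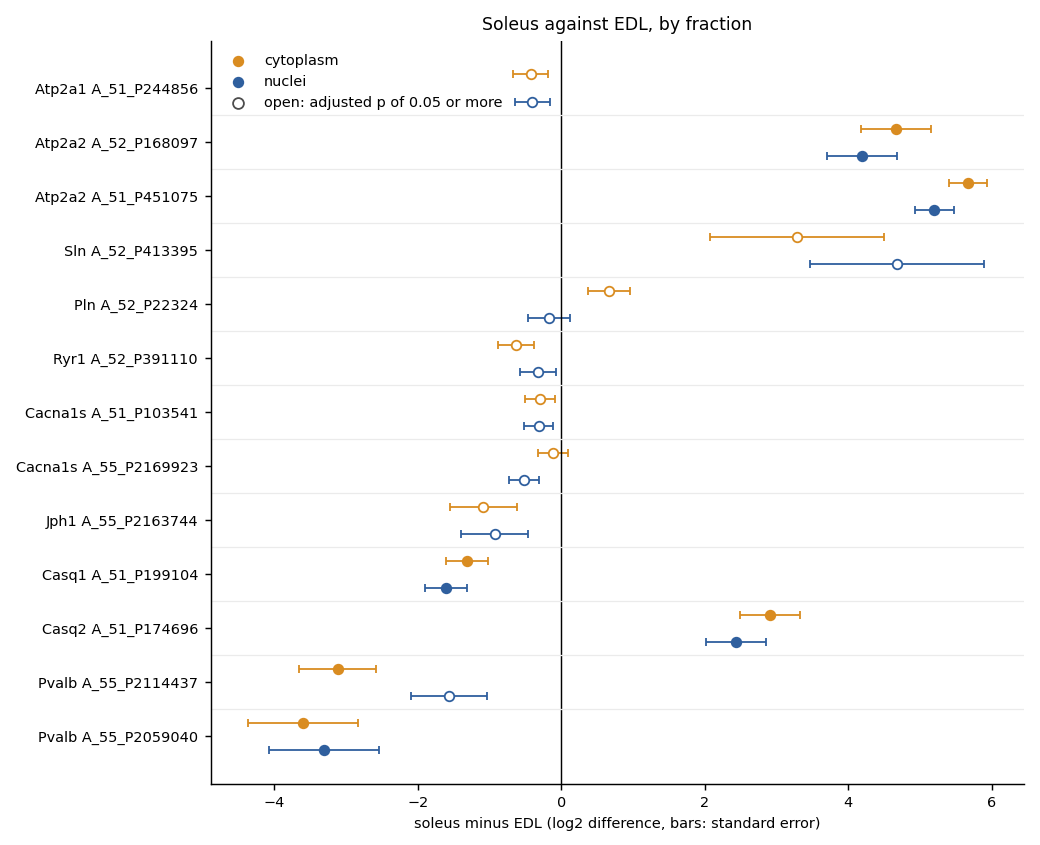
Soleus minus EDL for the 13 probes in cytoplasm and in nuclei (log2 difference, bars are standard errors, filled points passed an adjusted p of 0.05). Atp2a2 and Casq2 lie to the right of 0 in both fractions, and Casq1 and Pvalb to the left.

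RefSeq promoters, build GRCm38.p6, were matched for 7 of the 10 genes, and the 250 bases before the start were searched on both strands for 4 motifs, which are CANNTG (the E-box), the MEF2 site, the CArG box and TATAAA. Of all 32851 RefSeq promoters, 66.2% held an E-box, 2.92% a MEF2 site, 1.47% a CArG box and 12.4% a TATAAA. No CArG box was found in the 7 genes, TATAAA was found only in Pln, and an E-box was found in each gene but Ryr1. A MEF2 match was found in Casq2, starting 69 bases before the start, and in 1 of the 2 promoters of Pvalb, 180 bases before it. MEF2 is a factor that acts on muscle genes in fast and slow fibers. These are the pair printed, since they moved in opposite directions between soleus and EDL, with the MEF2 match in capitals, which overlaps no E-box. The match describes the letters and no binding was measured.

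Casq2 (chr3:102086165-102086414, plus strand): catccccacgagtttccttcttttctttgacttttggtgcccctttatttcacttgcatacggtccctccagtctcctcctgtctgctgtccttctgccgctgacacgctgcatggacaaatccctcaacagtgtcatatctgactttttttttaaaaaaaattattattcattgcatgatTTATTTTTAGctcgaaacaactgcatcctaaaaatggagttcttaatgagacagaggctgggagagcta
Pvalb (chr15:78206401-78206650, minus strand): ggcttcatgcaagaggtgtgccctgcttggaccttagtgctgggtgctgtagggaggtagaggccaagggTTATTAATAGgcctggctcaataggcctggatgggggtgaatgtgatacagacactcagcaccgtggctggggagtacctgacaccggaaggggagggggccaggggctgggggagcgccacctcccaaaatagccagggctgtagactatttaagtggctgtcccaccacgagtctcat

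The third comparison set TA, another fast muscle, against EDL and soleus. Against EDL most members gave less signal in TA: 10 of 13 probes were lower and 0 higher, where 30.2% of all probes were called, 13.5% higher and 16.6% lower. Sln differed by -2.99 (SE 0.86, adjusted p = 0.016), but 4 of its 6 TA arrays were not well above background, and without TA cytoplasm 1 the value was -3.95. Jph1 differed by -1.60 (SE 0.33, adjusted p = 0.0023) and the A_51_P451075 probe of Atp2a2 by -1.54 (SE 0.20, adjusted p = 0.00020). The call of the other Atp2a2 probe (-0.97) was lost in 15 of 18 fits that left out 1 array, all but those without EDL cytoplasm 3, soleus cytoplasm 1 or soleus cytoplasm 2. Atp2a1 differed by -1.03 (SE 0.17, adjusted p = 0.00071) and Casq1 by -1.02 (SE 0.21, adjusted p = 0.0021). Casq2 and both Pvalb probes did not pass. Only Atp2a1 had no overlap between the 6 TA and the 6 EDL arrays, against 2.62% of all probes.

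Some of these values go along with the slides. TA cytoplasm 1, which shared slide 1 with EDL cytoplasm, read 14.30 for Atp2a1, 6.88 for Jph1 and 12.43 for Casq1. The cytoplasm arrays on slides 4 and 3 read 13.17 and 13.08 for Atp2a1, 4.72 and 4.38 for Jph1, and 11.23 and 11.14 for Casq1. On slide 1 EDL cytoplasm stood at 14.44 to 14.67, 6.75 to 7.55 and 12.28 to 12.64 for these genes. The TA array on that slide lay within or just below these ranges, and likewise for Ryr1, Sln and Cacna1s. For other probes it lay lower, at 4.46 for Atp2a2 A_51_P451075 (EDL 5.25 to 6.20) and 3.50 for Pln (EDL 4.03 to 5.18). On Atp2a2 A_52_P168097 it read 6.01, below the TA cytoplasm arrays on slides 4 and 3 (6.41 and 6.15). With slide as a random block 0 of 13 probes passed between TA and EDL, and with the nuclear arrays as 1 sample also 0. The random block called 0.965% of all probes in this comparison. Muscle and slide can hardly be told apart here.

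Against soleus, TA was lower for 8 of 13 probes and higher for 2, where 37.8% of all probes were called, 18.9% in each direction. The difference, TA minus soleus, was -5.40 (SE 0.34, adjusted p = 6.3e-08) and -6.97 (SE 0.20, adjusted p = 2.8e-11) on the Atp2a2 probes and -6.97 for Sln (SE 0.86, adjusted p = 3.5e-05). These sizes rest in part on dim TA arrays, since Sln was well above background on 1 of 3 arrays in each TA fraction and Atp2a2 A_51_P451075 on 1 of 3 in TA cytoplasm, and without TA cytoplasm 1 the value of Sln was -7.93. Casq2 was 3.99-fold lower in TA (adjusted p = 0.00014). These 4 probes had no overlap, against 3.99% of all probes. They stayed past the threshold with slide as a random block, where 4 of 13 passed against 6.31% of all probes. With the nuclear arrays as 1 sample the call of Sln was lost (adjusted p = 0.052). Pvalb was higher in TA by 2.00 (SE 0.38, adjusted p = 0.00089) and 2.26 (SE 0.54, adjusted p = 0.0045), and both calls were lost with slide as a random block (adjusted p = 0.058 and 0.12). The first of these probes had no overlap, against 2.64% of all probes. Casq2 in TA nuclei was 8.19, 6.27 and 6.51, and in TA cytoplasm 5.56, 6.92 and 5.91, so the first nuclear array stood near soleus.

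By group mean Pln was highest in soleus in cytoplasm (5.34, with 4.67 in EDL and 3.21 in TA). In nuclei it was highest in EDL (5.96, with 5.79 in soleus and 5.45 in TA). For the other members the muscles fell into 3 orders. Atp2a2, Sln and Casq2 were highest in soleus. Casq1 and Pvalb A_55_P2059040 were highest in EDL and lowest in soleus, with TA between them. TA and soleus did not differ past the threshold for Casq1, nor TA and EDL for Pvalb. Atp2a1, Ryr1, Cacna1s and Jph1 were highest in EDL nuclei (14.95, 12.61, 13.36 and 11.06, and 7.69) and lower in the nuclei of soleus and again of TA, where EDL and soleus did not differ past the threshold.

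The wider calcium toolkit was read from a list of 59 further genes, each by its brightest probe, of which 56 could be tested in both main comparisons. Over the 3 muscles 23 of these 56 were higher and 7 lower in nuclei, against 31.2% and 38.6% of all probes, with a median difference of 0.36 against -0.08. By role, 7 of 10 genes of the junction were higher and 1 was lower, 4 of 12 release genes were higher and 1 lower, 4 of 7 genes of store-operated entry were higher and 1 lower, and 4 of 15 genes of uptake and extrusion were higher and 3 lower. Among further buffers 4 of 12 were higher and 1 was lower. Among the genes with the greatest nuclear excess were Stim2, a calcium sensor of the reticulum, at a difference of 1.75 (SE 0.19, adjusted p = 1.1e-06), and Itpr2, an inositol trisphosphate receptor, at 1.29 (SE 0.19, adjusted p = 1.9e-05). The difference was -1.13 for the pore subunit Orai2 (SE 0.16) and -1.10 for Mcub, an inhibitory subunit of the mitochondrial uniporter (SE 0.12), and the parvalbumin relative Ocm was 2-fold lower in nuclei (adjusted p = 0.0049). The difference of Ryr1, at 1.91, was greater than that of Stim2 or Itpr2.

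Between soleus and EDL 4 of the 56 passed, 1 higher and 3 lower, against 3.83% of all probes, and the median difference was 0.03. Mrln, the gene of myoregulin, which inhibits SERCA pumps as Sln and Pln do, differed by -0.90 (SE 0.20, adjusted p = 0.021), Jph2, the other main junctophilin of striated muscle, by -0.85 (SE 0.21, adjusted p = 0.031) and the calmodulin gene Calm3 by -0.69 (SE 0.16, adjusted p = 0.027). None of these 3 differences was as large as that of Atp2a2, Sln, Casq1, Casq2 or Pvalb. Calm3, Jph2 and Mrln each lost the call without single arrays, at adjusted p up to 0.083, 0.086 and 0.058, and with the nuclear arrays as 1 sample none of the 4 passed.

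**Figure D4:**
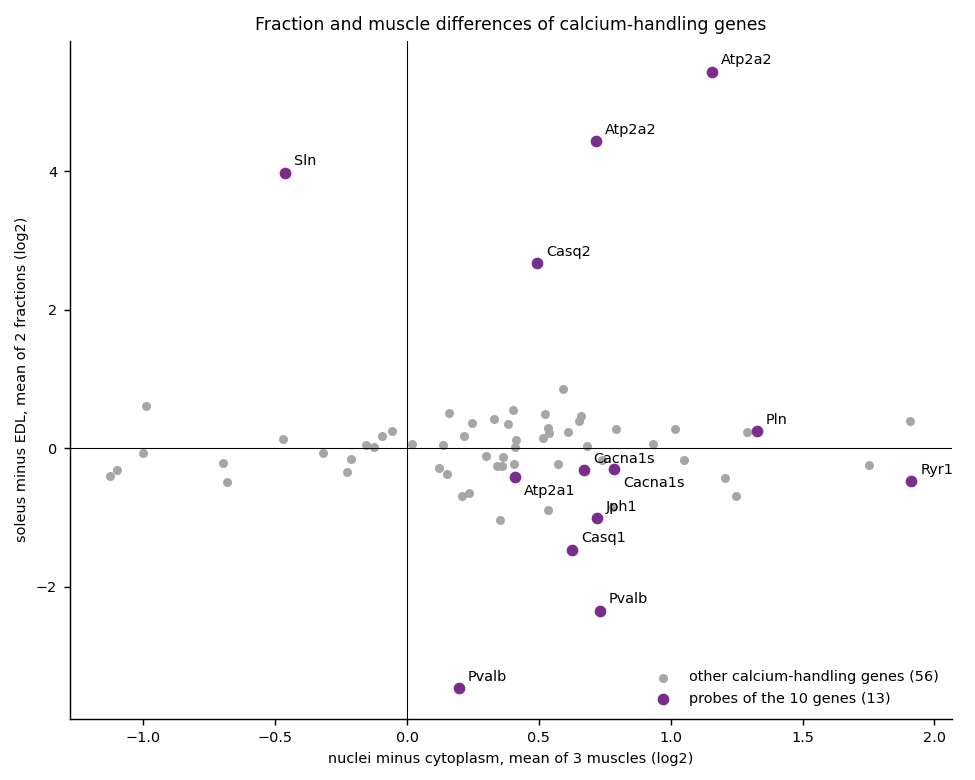
Nuclei minus cytoplasm, mean of 3 muscles (horizontal), against soleus minus EDL, mean of 2 fractions (vertical), both in log2, for the 13 probes (purple, with gene names) and for 56 other calcium-handling genes (grey). Grey points stay close to 0 on the vertical axis, while Atp2a2, Sln, Casq2, Casq1 and Pvalb lie far from it, and Ryr1 and Pln lie far to the right. The place of Pln rests in part on dim TA cytoplasm arrays.

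The genes whose levels ran most like each member's were sought among the brightest probes of all other genes, over 18 arrays (17 for Pln). These arrays share slide, fraction and muscle, so the coefficients describe the pattern only. Atp2a2 ran with Myh7b (r = 0.98) and Myh7 (r = 0.96), both myosin heavy chain genes of slow muscle and heart, and Casq2 with Tnni1 (r = 0.92), slow troponin I. Pvalb ran with Myh4 (r = 0.95), the myosin of the fastest fibers, and Mybpc2 (r = 0.95), the fast myosin-binding protein C. Cacna1s ran with Hrc (r = 0.96), a calcium-binding protein of the reticulum. Atp2a1 ran with Mrps21 (r = 0.98) and Tmod4 (r = 0.98), Casq1 with Phkg1 (r = 0.97), the muscle subunit of phosphorylase kinase, and Jph1 with Setd7 (r = 0.96). Ryr1 ran with Stat6 (r = 0.97), Pln with Slc5a6 (r = 0.95) and Sln with Timm17a (r = 0.94).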

How the data were processed

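Groups and replicate numbers are those of the labels. The deposited scanner files hold, per the file headers, intensity per spot, made by the authors with Agilent Feature Extraction 10.7.3.1, which corrected background within each array. A deposited matrix, with values for 3687 features, holds none of the members. Intensity was taken to log2. Spots lacking the positive and significant flag and outlier spots were set to missing, 3671 control spots were left out, and the arrays were quantile-normalized. Spots of a probe name were averaged. Means of 6 groups were fitted with limma 3.58.1 in R 4.3.3 (12 residual and 3.27 prior degrees of freedom), for probes with a value on at least 2 of 3 arrays per group. Standard errors are from this fit. Precision rests on the number of arrays and on a single spread per probe, shared by the 6 groups. The p-values measure the spread between arrays. In nuclei this was only 1.02 to 1.15 times the spread between spots of an array, so there it says little about the spread between pools.

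The members, the list of 59 calcium genes and the markers were chosen with earlier results of these data known. Members were named probe by probe, and listed genes by the 3 greatest differences past the threshold in each direction, of which some are not reported here. For each member the 3 genes with the highest r were computed, and a selection of them is given. Named genes were also left out, among them Tbx15 (r = 0.97 with Atp2a1 and 0.94 with Jph1) and Pdlim1 (r = 0.91 with Casq2). Replicate numbers pair EDL with soleus, and nuclei with cytoplasm within each of them, since the labels give them the same mice. The main fit does not use this pairing, while the replicate block does. Same-numbered arrays of EDL and soleus deviated from their group means with r of -0.11 to 0.10, across 35528 probes. For same-numbered nuclei and cytoplasm within EDL or soleus r was -0.017 to 0.035. The fractions of TA come only in part from the same mice, and TA cytoplasm 1 and 2 share mouse 5. Alternatives were another scaling or background correction, other filters on dim spots, array weights, replicate or slide blocks, nuclear arrays as 1 sample, leaving out each array and Significance Analysis of Microarrays with 20 permutations. The scripts were tested on simulated data. Also used were matplotlib 3.10.9, pandas 2.3.3, numpy 2.4.6, Python 3.11.15 and the package data.table (version 1.17.8).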

Additional observations from a re-analysis of the deposited data

How the results depend on the processing

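Counts are of the 13 probes that passed. With the nuclear arrays as 1 sample they fell from 10 to 4 for the fractions over the 3 muscles, from 6 to 1 in EDL, from 4 to 1 in soleus and from 4 to 1 in TA, and for soleus against EDL from 7 to 3 over both fractions, from 6 to 3 in cytoplasm and from 5 to 0 in nuclei. The same setting gave 0 for TA against EDL and 3 for TA against soleus, each 10 otherwise. With slide as a random block the counts were 3 for the fractions in EDL, 1 in soleus, 0 for TA against EDL and 4 for TA against soleus. The shares of all probes called there were 12.1%, 6.89%, 0.965% and 6.31%. For the fractions in TA, scaling to the 75th percentile gave 7, no scaling 8, values on 3 of 3 arrays 2, only spots well above background 2, slide as a fixed block 7, array weights 9 and Significance Analysis of Microarrays 0. Of all probes in TA, 57.8% were called with scaling to the 75th percentile, 52.5% with no scaling and 62.7% with array weights. Values on 3 of 3 arrays gave 54.6% and only spots well above background 54.8%. Significance Analysis of Microarrays called 858 of 39373 probes higher in TA nuclei and 3942 lower. For the fractions in soleus, no scaling gave 12, where 62.1% of all probes were called. Significance Analysis of Microarrays gave 2 in soleus, where 6079 of 39139 probes were higher and 7224 lower. Array weights gave 3 for soleus against EDL in cytoplasm and 12 in nuclei, against 0.706% and 21% of all probes. For the interaction no filter on dim spots gave 1, against 2.37% of all probes.

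Leaving out each array gave 7 to 10 for the fractions over the muscles, 5 to 7 in EDL, 2 to 8 in soleus and 2 to 6 in TA, 7 to 10 for soleus against EDL over both fractions, 4 to 8 in cytoplasm and 3 to 6 in nuclei, 8 to 10 for TA against EDL, 9 to 11 for TA against soleus and 0 to 1 for the interaction. The 8 came without TA cytoplasm 1, the 2 in soleus without soleus cytoplasm 3, soleus nuclei 1 or soleus nuclei 3, the 2 in TA without TA cytoplasm 3, the 3 without soleus nuclei 2, and the 1 without EDL cytoplasm 1 or soleus cytoplasm 1. The replicate block moved no count by over 1.5 times (10 over the muscles, 5 for soleus against EDL in cytoplasm and 9 for TA against EDL). It changed the calls given above and that of Atp2a2 A_52_P168097 for TA against EDL (adjusted p = 0.056), and no other call of a member. No called member changed sign. Causes were not tested. The matrix the authors deposited could not be used, since it has a value for 0 of the members.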

Other observations

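Against both other muscles TA differed in further calcium genes, with the same limit that TA lay largely on its own slides. Of 56 listed genes 9 were higher and 19 lower in TA than in EDL, against 13.5% and 16.6% of all probes. In TA against soleus 8 were higher and 16 lower, against 18.9% of all probes in each direction, and both comparisons share the TA arrays. Tmem38b, a counter-ion channel of the reticulum, differed by -1.87 from EDL (SE 0.31, adjusted p = 0.00062) and by -2.13 from soleus (SE 0.31, adjusted p = 0.00012). Mcu, the pore of the mitochondrial uniporter, differed by -1.38 (SE 0.28, adjusted p = 0.0024) and -1.86 (SE 0.28, adjusted p = 0.00019). Cacnb1, the beta subunit of the dihydropyridine receptor, differed by -1.35 from EDL (SE 0.23, adjusted p = 0.00069), and S100a1, a calcium-binding partner of the release channel, by -1.23 from soleus (SE 0.22, adjusted p = 0.00068). Fkbp1b, which binds ryanodine receptors, differed by 1.18 from EDL (SE 0.18, adjusted p = 0.00044), and Itpr3, an inositol trisphosphate receptor, by 1.07 from EDL (SE 0.23, adjusted p = 0.0029) and by 1.18 from soleus (SE 0.23, adjusted p = 0.0010). With slide as a random block 0 of the 56 passed against EDL and 5 against soleus, where 0.965% and 6.31% of all probes were called.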
